A study of Mus musculus with 4 samples.

Results

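Cytosolic ribosomal protein genes were examined for RNA polymerase II (Pol II) peaks in primary mouse osteoblasts. The set was taken from the RefSeq table of GRCm38.p6 by symbol: protein-coding Rpsa, Rplp0, Rplp1 and Rplp2, and Rpl or Rps with a number and at most 1 of the letters a, x or l. This gave 81 of 21887 protein-coding genes, of which 50 encode proteins of the large ribosomal subunit and 31 of the small subunit. Genes for small nucleolar RNAs (snoRNAs) lay inside 29 of them, and 52 held none. The ribosome is built from ribosomal RNAs and about equal amounts of each ribosomal protein, so cells make these proteins at high and matched rates. Their genes are short and highly transcribed, and many begin with a run of pyrimidines at the transcription start, the terminal oligopyrimidine (TOP) motif, through which translation of the mRNAs follows mTOR activity. Many of them also host snoRNAs, guide RNAs for the modification of ribosomal RNA, which are released from introns.

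Pol II was mapped by ChIP-seq, in which an antibody pulls down a crosslinked protein with its DNA for sequencing. One condition was osteoblasts given OSS_128167, an inhibitor of the deacylase SIRT6, and the other was WT osteoblasts whose title names no treatment, called untreated here. Each condition had 1 Pol II library and 1 input, and the deposited peak list of each Pol II library was used, without replicates. In both conditions the cells were described as young primary osteoblasts, obtained by growing adherent mesenchymal stem cells out of bone pieces and keeping them in osteogenic medium. The treatment field names OSS_128167 for every sample, so the untreated group rests on the titles. The sources used here do not give the number of animals, the dose or the duration of treatment, and the name of the OSS_128167 list mentions SIRT6 and not the inhibitor. In these bulk samples, fewer cells with Pol II at a gene and less Pol II per cell cannot be told apart.

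The OSS_128167 list held 40748 peaks and the untreated list 1694, with 6568 and 109 at a false discovery rate (FDR) of at most 0.05. Read totals are not in the lists, so depth is unknown, and differences between the lists are differences between 2 libraries. Of 11 osteoblast markers, 6 had a peak in the OSS_128167 list, 5 of them at that FDR, led by the type I collagen genes Col1a1 (fold 9.42) and Col1a2 (9.03), while Alpl, Bglap, Ibsp, Spp1 and Dmp1 had none. Runx2 and Col1a2, 2 of the 11, had one in the untreated list, neither at that FDR. Macrophage markers had 3 of 5 in the OSS_128167 list (Cd68, Adgre1 and Ptprc), 2 at that FDR, endothelial markers 2 of 3, 0 at that FDR, chondrocyte markers 2 of 3, 1 at that FDR, and osteoclast and adipocyte markers 0 of 3 each. Over all protein-coding genes 37.8% had a peak in that list and 11.5% at that FDR. Of these 5 other marker lists 1 member, the adipocyte gene Pparg, had an untreated peak. The part of other cell types in the results below was not tested.

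A promoter entry with strand and start was found in RefSeq (GRCm38.p6) for 61 of the 81 genes. Shown first are the start regions of the 6 genes with the highest fold in the OSS_128167 list among those with an entry, then Rps18 and Rps6, in which a pyrimidine run begins at the annotated start base, and Rpl3l, a near copy of Rpl3 that had no peak. Rps18 and Rps6 were chosen after their values were seen. Each window runs from 60 bases before the start through the first 20 bases of the transcript, and capitals mark the pyrimidine run where there is one.
Rps15a (chr7:118116128-118116207, minus strand): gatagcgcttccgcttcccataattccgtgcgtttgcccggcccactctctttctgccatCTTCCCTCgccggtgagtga
Rpl41 (chr10:128549149-128549228, minus strand): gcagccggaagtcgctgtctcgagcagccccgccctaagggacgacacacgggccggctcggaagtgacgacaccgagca
Rpl10 (chrX:74270756-74270835, plus strand): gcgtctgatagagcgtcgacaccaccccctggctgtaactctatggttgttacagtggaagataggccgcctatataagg
Rpl5 (chr5:107900468-107900547, plus strand): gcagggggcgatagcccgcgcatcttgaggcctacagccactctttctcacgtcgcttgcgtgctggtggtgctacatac
Rpl7a (chr2:26910747-26910826, plus strand): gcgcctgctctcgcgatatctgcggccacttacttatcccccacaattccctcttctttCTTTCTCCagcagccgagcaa
Rps2 (chr17:24720003-24720082, plus strand): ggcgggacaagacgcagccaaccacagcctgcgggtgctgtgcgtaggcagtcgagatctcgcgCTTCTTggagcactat
Rps18 (chr17:33955646-33955725, minus strand): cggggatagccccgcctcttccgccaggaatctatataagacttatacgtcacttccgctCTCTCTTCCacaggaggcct
Rps6 (chr4:86857348-86857427, minus strand): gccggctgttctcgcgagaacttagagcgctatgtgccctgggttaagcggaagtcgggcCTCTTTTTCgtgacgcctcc
Rpl3l (chr17:24727766-24727845, plus strand): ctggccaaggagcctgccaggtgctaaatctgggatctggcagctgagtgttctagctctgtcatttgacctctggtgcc

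The run was defined as a C followed by at least 4 bases that are C or T, on the coding strand, beginning within 5 bases of the annotated start. It was found in 28 of the 61 genes (45.9%), against 18.7% of 17431 other protein-coding genes and 18.3% of all 32851 entries. A run that began exactly at the start base was found in 13 (21.3%), against 2.1% and 2.51%. In the full window of 250 bases before to 50 after the start, TATAAA (coding strand) stood in 6 of the 61 (9.84%), against 8.99% of the other protein-coding genes. CCGGAAG, on either strand, stood in 24 (39.3%, against 11.8%), GGGCGG in 35 (57.4%, against 46.3%) and ATGGCGG in 9 (14.8%, against 5.4%). Over all entries the shares were 8.32% for TATAAA, 8.86% for CCGGAAG, 35.7% for GGGCGG and 4.05% for ATGGCGG. Matches of GGGCGG and ATGGCGG can overlap each other. The pyrimidine run was about as common in genes with a Pol II peak in the OSS_128167 list (19 of 41) as in those without (9 of 20). A run at the start base was found in 10 of 41 and 3 of 20. CCGGAAG stood in 15 of 41 and 9 of 20, and ATGGCGG in 7 of 41 and 2 of 20. GGGCGG stood in a larger share of the genes with a peak (27 of 41) than of those without (8 of 20). TATAAA stood in a smaller share (2 of 41, against 4 of 20). These counts are small, and the differences were not tested.

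Most ribosomal protein genes had a Pol II peak in the OSS_128167 list, and none had one in the untreated list. A gene was counted when a peak lay inside it or within 1000 bp of either boundary. In the OSS_128167 list 57 of 81 had one (70.4%, exact Clopper-Pearson 95% interval 59.2 to 80.0, which covers counting error only), where the share of all protein-coding genes was 37.8%. Among the 8615 protein-coding genes in the same range of lengths, 592 to 11774 bp, the share was 18.1%. With an FDR limit of 0.05 the count was 45 (55.6%, 44.1 to 66.6), against 11.5% of all protein-coding genes and 6.78% of those in the length range. In the untreated list 0 of 81 had a peak at either limit, which allows a share of up to 3.70% by the count of 3 behind a zero. The untreated shares of all protein-coding genes were 2.3%, and 0.132% at that FDR, and those of genes in the length range 0.592% and 0.151%, so a count of 0 lies near the background of this list. With 1 library per condition the difference has no replicate check.

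**Figure D1:**
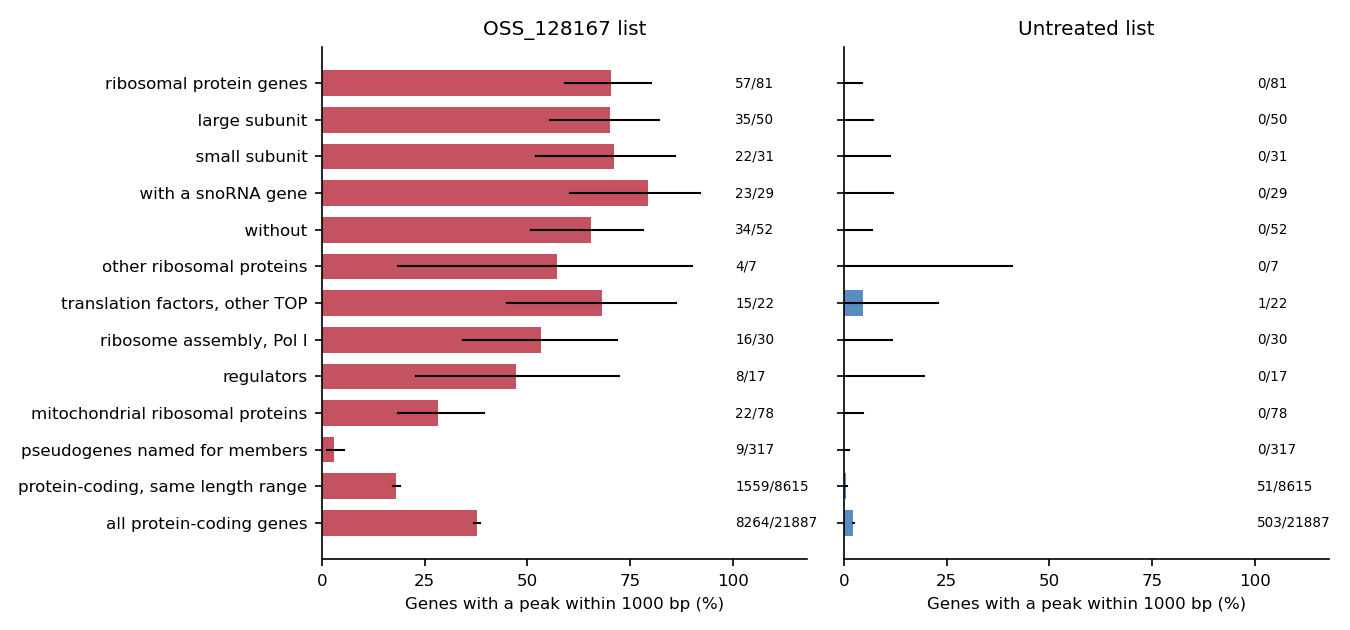
Percentage of genes with a peak inside or within 1000 bp, in the OSS_128167 list (left) and the untreated list (right), with the number of genes beside each bar and black lines for exact 95% intervals. The bar of the ribosomal protein genes reaches 70.4% in the OSS_128167 list, against 18.1% for protein-coding genes of the same length range, and is at 0 in the untreated list.

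The nearest untreated peaks lay beyond the ends of Rpl23 and Rpl28, which encode large subunit proteins. The one after Rpl23 was 1292 bp away on chromosome 11 (97775965 to 97776234), with a fold of 2.19 and an FDR of 1. The one after Rpl28 was 4567 bp away on chromosome 7 (4799114 to 4799317), with a fold of 3.73 and an FDR of 1. Over the 81 genes the median distance to an untreated peak was 1647012 bp, close to the 1559063 bp over all protein-coding genes.

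Large and small subunit genes had peaks about equally often in the OSS_128167 list. The counts were 35 of 50 for the large subunit (70.0%, 55.4 to 82.1) and 22 of 31 for the small subunit (71.0%, 52.0 to 85.8), and with an FDR limit of 0.05 they were 27 (54.0%) and 18 (58.1%). The median of the highest fold per gene with a peak was 3.66 for large and 3.72 for small subunit genes, where each fold is the authors' enrichment of a peak within its list. The median share of gene length under peaks was 5.77% and 7.64%. These intervals overlap widely, and genes of 1 library are not replicates, so no test was made.

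Over all 57 genes with a peak the median of the highest fold was 3.66 (quartiles 3.17 and 4.46), against 3.10 (2.71 and 3.55) over all protein-coding genes with a peak. Peaks at ribosomal protein genes were also long. Their 113 peaks had a median length of 481 bp, against 286 bp over 19801 peaks at protein-coding genes, and 23 (20.4%, against 2.82%) were at least 1000 bp long. Of the 113 peaks 64 (56.6%) had an FDR of at most 0.05, against 18.4%. The median covered share of gene length over all 81 genes was 6.99% (upper quartile 23.7%), against 0.0% (0.528%), but at an FDR of at most 0.05 the median of the 81 was also 0.0%. Peaks covered at least 25% of the length of 20 of the 81 genes and at least 50% of 9. The shares of all protein-coding genes were 1.38% and 0.681%, but their median length was 17169 bp, against 3175 bp for the 81. Among genes with a peak, the median covered share was 13.9%, against 4.8% in the length range and 0.88% over all protein-coding genes. Fold had little relation to gene length over the 57 genes (Spearman rho -0.0687, a description across genes of 1 library).

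**Figure D2:**
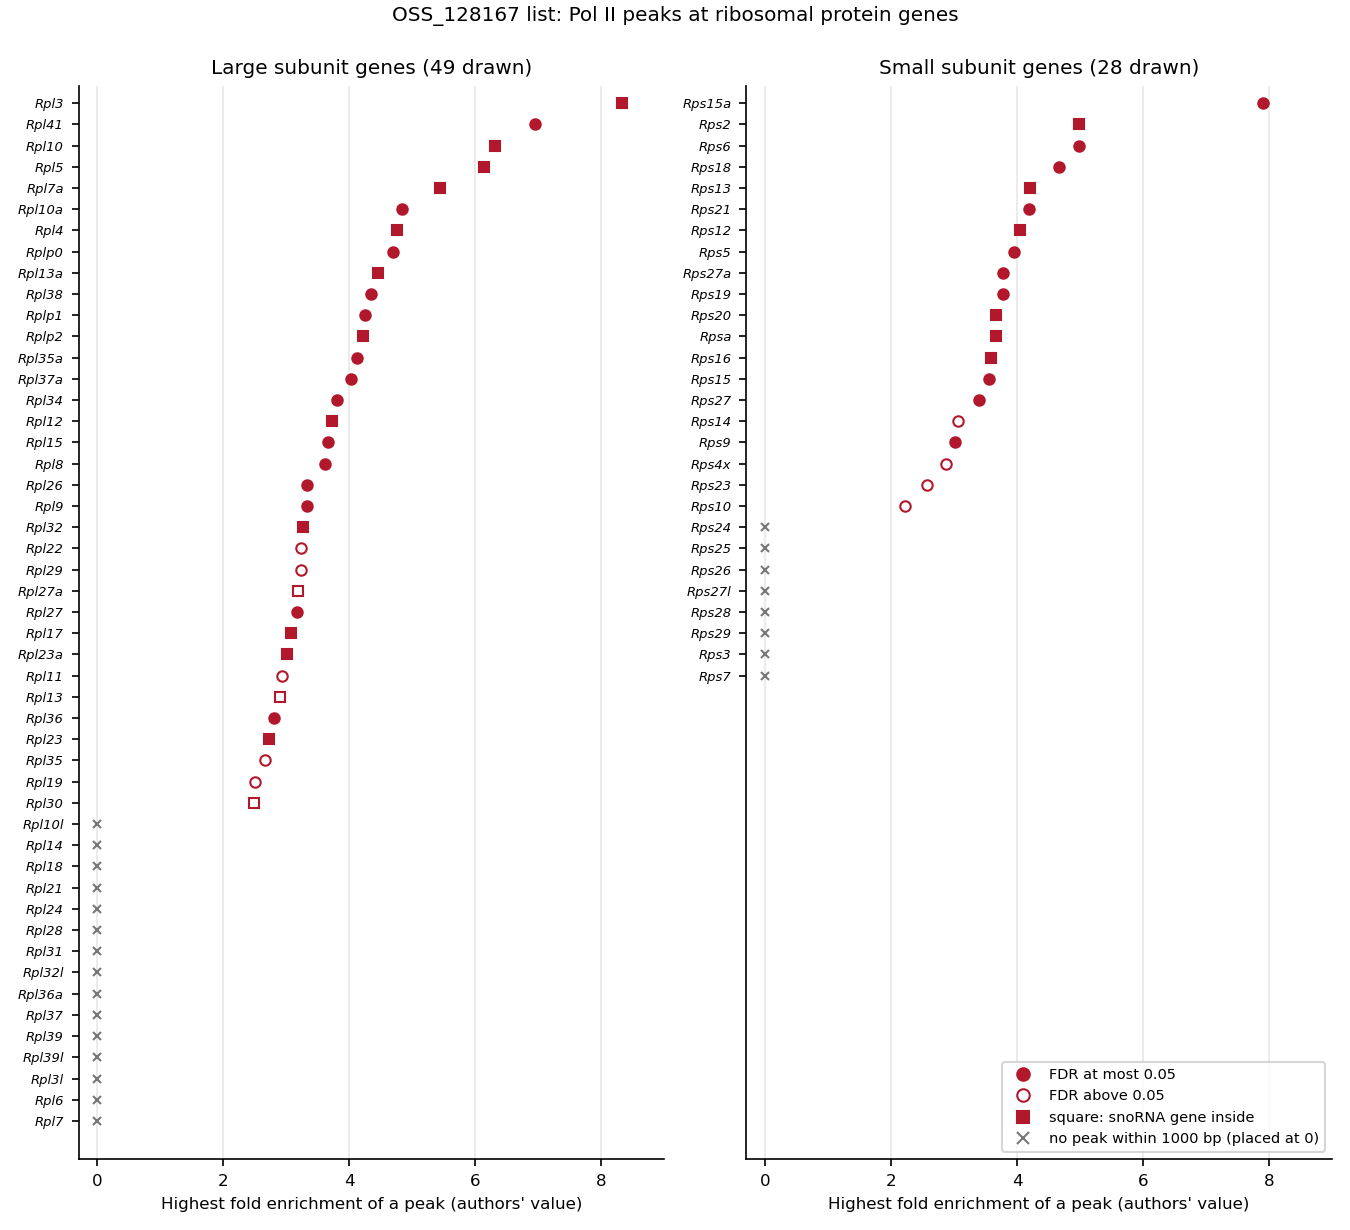
Highest fold enrichment of a peak at 49 large subunit genes (left) and 28 small subunit genes (right) in the OSS_128167 list, on a linear axis, with filled symbols for genes with a peak at an FDR of at most 0.05 and squares for genes with a snoRNA gene inside. Rpl3 at 8.32 and Rps15a at 7.90 stand highest, and genes without a peak within 1000 bp are crosses at 0.

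Each of the 3 genes for proteins nearest to the catalytic centre of the large subunit had a peak, and Rpl3 led the whole set. These role groups were put together after the values had been seen, hold few genes, and stand beside 70.4% with a peak and 55.6% within the FDR limit over all 81 genes. Rpl3, whose product reaches towards the peptidyl transferase centre, had a fold of 8.32, with an FDR of 4.98e-20. Its peak of 4363 bp (chromosome 15, 80079095 to 80083457) was 1 of 3, and together they covered 80.8% of the gene. Rpl10, whose product joins the large subunit late in its maturation and is needed for catalysis, had 3 peaks, the highest at 6.31 (FDR 1.48e-10), over 58.4% of the gene. Rpl8, whose product also lies by that centre, had 3 peaks, the highest at 3.61 (FDR 0.00567).

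The stalk, which recruits the factors that drive translation, had a peak at each of the 4 genes for it and its base. Rplp0, the stalk's anchor, had 5 peaks over 57.2% of the gene, the highest at 4.69 (FDR 3.07e-05). Rplp1 reached 4.24 and Rplp2 4.22, which encode the acidic proteins of the stalk tip, and Rpl12 at the base reached 3.72 with 3 peaks. All 4 genes had a peak at an FDR of at most 0.05. Rpl5 and Rpl11 encode the proteins that bind 5S ribosomal RNA and that restrain MDM2 when ribosome assembly fails. Rpl5 had a fold of 6.14 (FDR 1.05e-08) and Rpl11 one of 2.94 (FDR 0.263).

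Of 9 genes for proteins at the tunnel through which the new peptide leaves, 7 had a peak (77.8%) and 4 had one at an FDR of at most 0.05 (44.4%), near the shares of the whole set. Rpl4, whose product reaches into the tunnel, was highest at 4.76 (FDR 3.71e-07), and Rpl31 and Rpl39 had none. Of the other large subunit genes, Rpl41, which encodes a very small basic peptide, had a fold of 6.95 (FDR 3.58e-19) and was covered over 86.0%, the highest share of the 81. Rpl7a had a fold of 5.44 (FDR 7.23e-09) and 63.0% of its length covered. Rpl10a, which encodes the protein of the mobile stalk by the exit site of tRNA, had a fold of 4.83 (FDR 8.06e-10) and 83.7%. Rpl38, whose loss in mice alters the patterning of the axial skeleton, had 3 peaks, the highest at 4.35 (FDR 0.000386).

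In the small subunit Rps15a led with a fold of 7.90 (FDR 1.76e-12). Rps2, whose product lies at the mRNA entry channel, had 1 peak of 4223 bp with a fold of 4.98 (FDR 1.54e-10), which covered 85.6% of the gene. Among the 4 genes for mRNA entry and decoding, Rps15 reached 3.55 (FDR 0.00714), Rps23 reached 2.57 (FDR 0.507), and Rps3 had no peak. Among the 4 at the mRNA exit, Rpsa reached 3.66 (FDR 0.00487) and Rps14 3.06 (FDR 0.195), and Rps26 and Rps28 had none. Rps6, whose product is phosphorylated by the S6 kinases downstream of mTOR, had a fold of 4.98 (FDR 1e-05) in a peak beyond the gene, with 0% of the gene itself covered. Rps12 had the longest peak of the set, 6668 bp, with a fold of 4.05 (FDR 2.07e-06) over 84.9% of the gene. Rps20 had 5 peaks over 78.4% of the gene, the highest at 3.66 (FDR 0.00487). Of 9 genes whose loss of 1 copy is linked to Diamond-Blackfan anaemia in human, 6 had a peak (66.7%) and 4 had one at an FDR of at most 0.05 (44.4%), again near the whole set, among them Rps19 (3.77) and Rpl35a (4.13).

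Several separate peaks at a gene were common. At least 3 lay at 14 of the 81 genes: Rpl10, Rpl10a, Rpl12, Rpl13a, Rpl3, Rpl38, Rpl7a, Rpl8, Rps15a and Rps18 with 3, Rpl27a with 4, and Rpl23, Rplp0 and Rps20 with 5. At 11 of the 57 genes every peak lay in the 1000 bp flanks and none in the gene itself. For 23 genes the peak of highest fold also lay within 1000 bp of another annotated gene, and the part of that gene in the peak was not tested.

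Near the FDR limit, Rpl17 (FDR 0.0405, fold 3.08) and Rpl27 (0.0410, 3.17) were just inside it. Rpl27a (0.0991, 3.19), Rpl22 (0.159, 3.23) and Rpl13 (0.159, 2.89) were just outside. The folds on both sides of the limit lay in the same range.

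No peak within 1000 bp was listed for 24 genes in the OSS_128167 list. Among them were Rpl6, Rpl7, Rpl14, Rpl18, Rpl21, Rpl24, Rpl28, Rpl31, Rpl36a, Rpl37 and Rpl39, the near copies Rpl3l, Rpl10l, Rpl32l, Rpl39l and Rps27l, and Rps3, Rps7, Rps24, Rps25, Rps26, Rps28 and Rps29. Of the 24, 15 had a peak within 5000 bp, and the distance to the nearest ranged between 1014 bp at Rps27l and 1027098 bp at Rpl39. Each of the 5 near copies within the symbol rule lacked a peak within 1000 bp. Rpl3l, a copy used in striated muscle, had none while Rpl3 had a fold of 8.32. Rpl10l, a copy used in the testis, had none while Rpl10 had 6.31, and the pairs Rpl32 (3.27) and Rpl32l, and Rps27 (3.39, lowest FDR 0.000665) and Rps27l, differed in the same way. Rpl39 and its testis copy Rpl39l both had none. Outside the symbol rule, Rpl7l1 went the other way, with 3 peaks (highest fold 4.41, FDR 0.000167) while Rpl7 had none. Rps4x, carried on the X chromosome, had a fold of 2.87 (FDR 0.377). Among 317 pseudogenes named for these genes 9 had an OSS_128167 peak (2.84%), 2 of these within the FDR limit of 0.05. The sources used here do not say how reads shared between a gene and its pseudogenes were counted.

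Far more of these genes had a peak after their annotated end than before their start. The windows used for this were chosen after the data had been seen, and they could be set for the 61 genes with an annotated start. In the 3000 bp after the annotated gene end 53 of 61 had a peak in the OSS_128167 list (86.9%, 75.8 to 94.2). The share was 16.0% of 17385 protein-coding genes with a start and 13.7% of the 6951 in the length range. In the 3000 bp before the start 9 had one (14.8%, 6.98 to 26.2), against 5.53% and 6.95%. Between 1 and 3 kb before the start 2 had one (3.28%), against 3.76% and 4.57%. At Rps21, Rpl7a, Rpl10, Rps13, Rpl41, Rps9 and Rplp0 peaks covered only 12 to 196 bases before the start. The peak of Rps2 there lay within its annotated gene boundaries. Within 300 bp of the start 18 had a peak (29.5%), against 3.01% and 4.23%. Inside the gene 31 had one (50.8%), against 33.9% and 13.9%. With the FDR limit of 0.05 the counts were 38 after the end (62.3%, against 5.8% and 5.54%) and 6 before the start (9.84%, against 1.88% and 2.45%). In the untreated list 1 of the 61 had a peak in the 3000 bp after its end, the Rpl23 peak given above, against 0.403% of protein-coding genes.

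The same order held gene by gene. Of the 61 genes, 53 had more bases under OSS_128167 peaks in the 3000 bp after the end than in the 3000 bp before the start, 0 had fewer, and 8 had none in either. The median was 897 bases after the end (quartiles 395 and 1440) and 0 before the start. A peak after the end but none inside the gene was found at 22, peaks in both at 31, a peak inside the gene but none after the end at 0, and neither at 8. A peak that crossed the gene end counted on both sides. Where both were present, the highest fold after the end exceeded that inside the gene at 20 and was below it at 6. At the other 5 (Rpl10a, Rpl13a, Rpl41, Rps12 and Rps18) the same peak across the end gave both values. The 8 with neither were Rpl10l, Rpl18, Rpl32l, Rpl36a, Rpl39, Rpl39l, Rpl3l and Rps26.

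Coverage along the genes was highest at about 1 kb past the end. At the first point inside the gene, 2.5% of its length, 24.6% of the 61 genes were covered by an OSS_128167 peak, and the share was lowest at 77.5% of the length, with 6.56%. At 1050 and 1150 bp after the end it was 47.5%. Over the 6951 genes in the length range, coverage was 2.46% and 2.16% at the same points inside the gene. It was also highest at about 1 kb past the end, with 3.83% at 950 bp. By distance, 34 of the 61 had a peak in the first 1000 bp after the end (55.7%), 50 between 1 and 3 kb (82.0%) and 23 between 3 and 5 kb (37.7%). The shares were 8.05%, 13.2% and 10.0% of all protein-coding genes with a start, and 7.87%, 11.1% and 7.77% of those in the length range. Annotated neighbours were present in some of these windows. Among the 30 genes with no other annotated gene in the 3000 bp after their end, 26 had a peak there (86.7%, 69.3 to 96.2) and 2 had one before the start (6.67%), against 9.44% and 5.76% for 4374 genes of the length range with the same clear space. With the FDR limit of 0.05 the counts of these 30 were 16 after the end (53.3%, 34.3 to 71.7) and 2 before the start, against 3.61% and 1.81%.

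**Figure D3:**
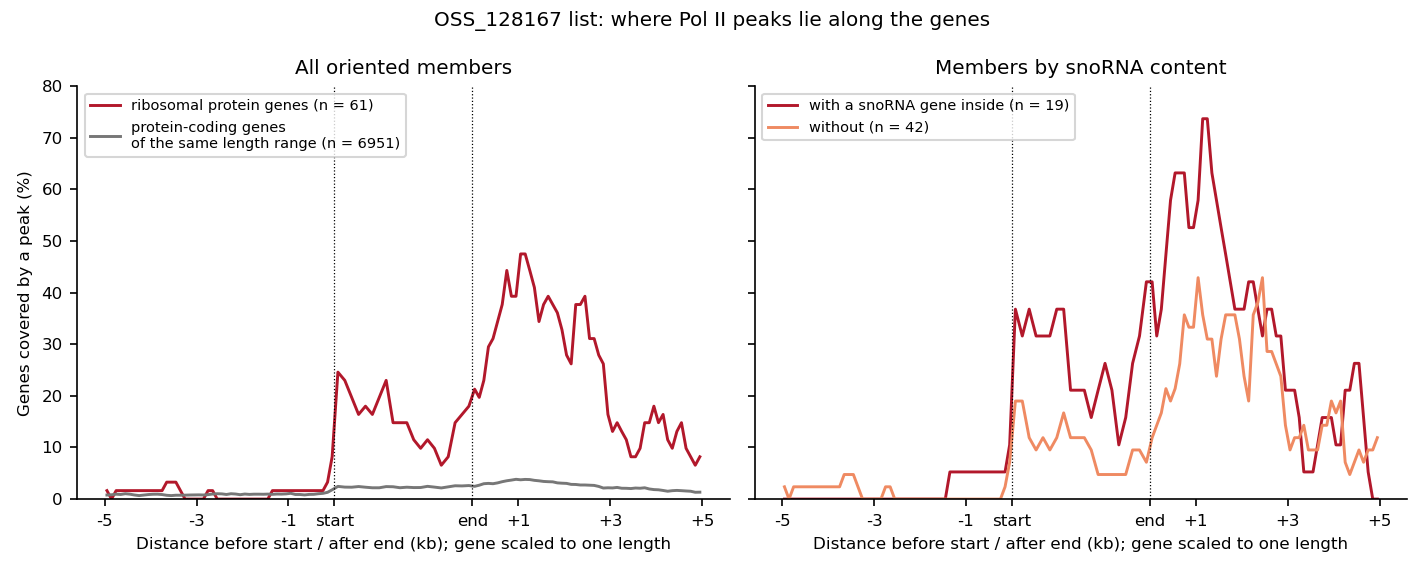
Percentage of genes covered by an OSS_128167 peak from 5 kb before the start to 5 kb after the end, with each gene scaled to one length between the dotted lines. On the left the 61 ribosomal protein genes peak at 47.5% about 1 kb past the end, with protein-coding genes of the same length range in grey, and on the right the 19 genes with a snoRNA gene inside are set beside the 42 without.

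Some of the highest folds were in these downstream peaks. The peak of Rps15a with a fold of 7.90 began 312 bp and finished 2128 bp after the gene end, and that of Rpl5 with 6.14 lay 226 to 1598 bp after it. The peak of Rps6 (4.98) lay 691 to 1436 bp and that of Rpl4 (4.76) 374 to 1340 bp after the end. The long peak of Rps12 ran out of the gene to 4799 bp after its end. Beyond the 1000 bp limit, Rps19 had a downstream fold of 6.47 (FDR 1.7e-08) against 3.77 inside the gene, Rps2 had 6.17 (7.3e-12) against 4.98, and Rpl37a had 5.88 (3.38e-07) against 4.03. The 1000 bp limit thus left out the highest downstream peaks of these last genes. Another annotated gene lay in the 3000 bp after Rpl5, Rpl4 and Rps2, and its part in their downstream peaks was not tested. None lay in the 3000 bp after Rps15a, Rps6, Rps12, Rps19 and Rpl37a.

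Of the 20 oriented genes counted as having no peak within 1000 bp, 12 had one between 1 and 3 kb after the end, 6 of them at an FDR of at most 0.05. These were Rpl14 (fold 5.31, FDR 5.92e-06), Rps24 (4.10, 0.00459), Rpl24 (3.81, 0.00740), Rps28 (3.47, 0.00995), Rpl37 (3.46, 0.0153) and Rpl6 (3.27, 0.0428). Another annotated gene lay in the 3000 bp after Rpl14, Rpl24, Rps28 and Rpl37, and among the 10 of the 20 with none there, 6 had a peak and 2 had one within the FDR limit. Those outside the limit were Rpl28, Rpl31, Rps3, Rps7, Rps25 and Rps27l. The peaks of Rps24 and Rpl28 reached only 39 and 21 bases into the 3000 bp. Within the 3000 bp, small subunit genes had a peak at 22 of 23 (95.7%) and large subunit genes at 31 of 38 (81.6%, 65.7 to 92.3), but with the FDR limit the order turned, with 14 of 23 (60.9%) and 24 of 38 (63.2%).

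**Figure D4:**
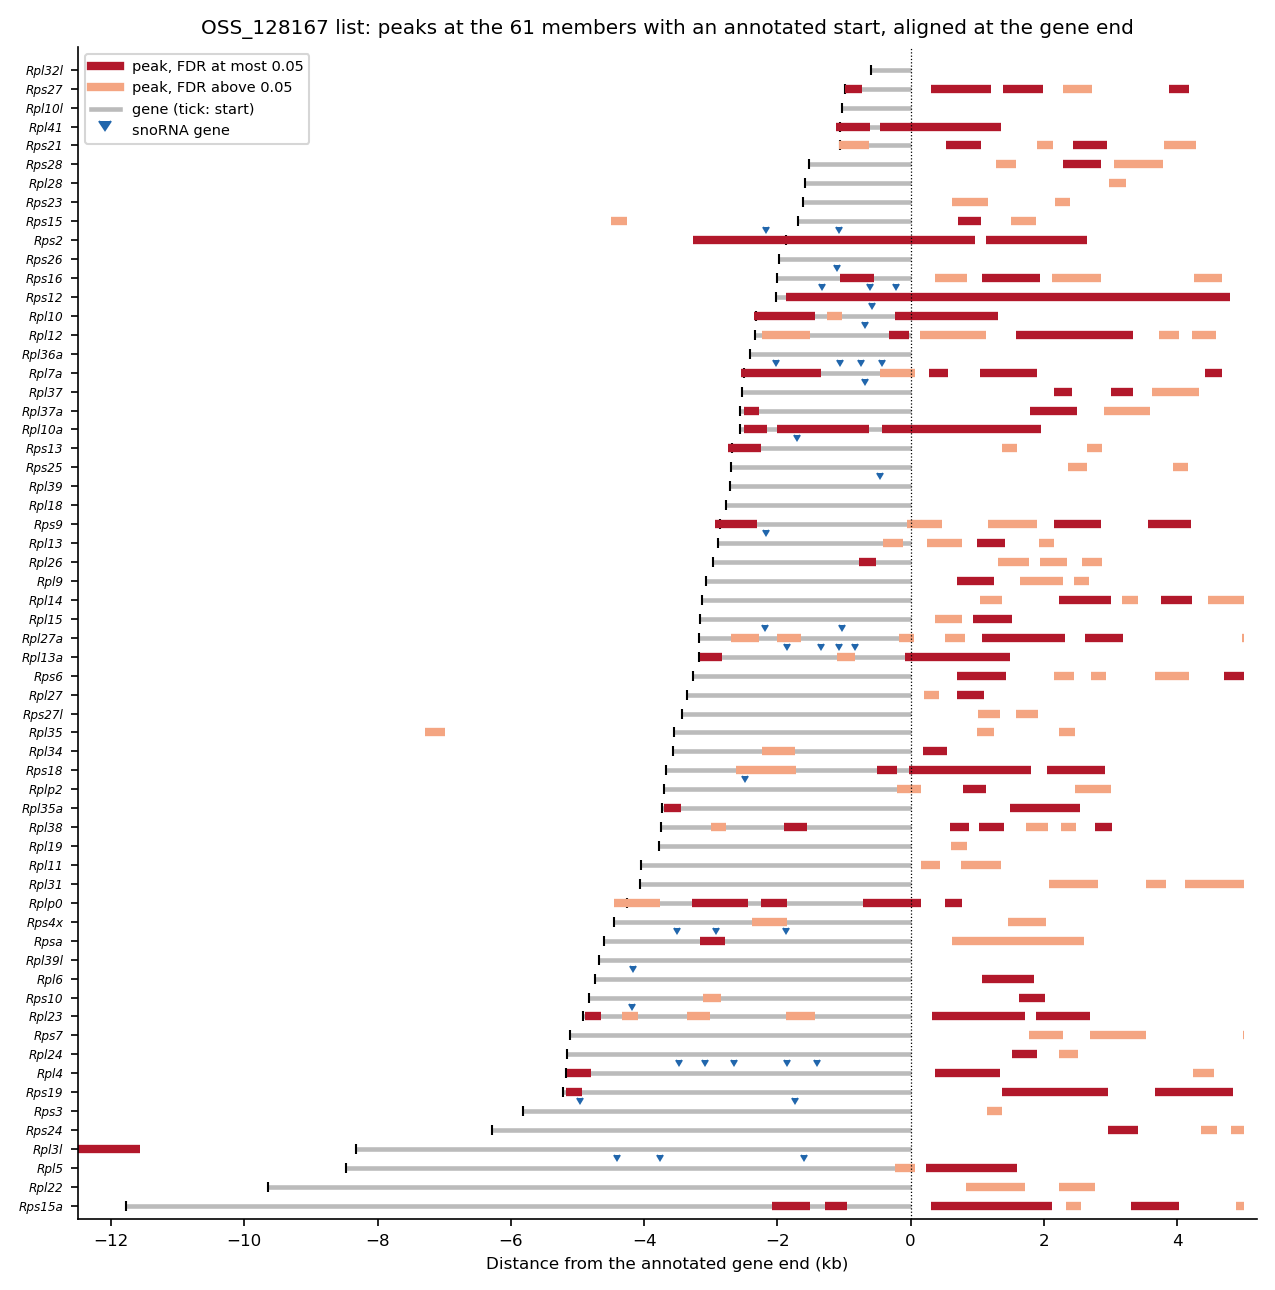
Pol II peaks of the OSS_128167 list at the 61 ribosomal protein genes with an annotated start, aligned at the gene end (0 kb) and ordered by length, with grey gene bodies, dark red peaks at an FDR of at most 0.05, light red other peaks and blue triangles for snoRNA genes. Peaks are drawn up to 5 kb after the end, and 53 of 61 genes have one in the first 3 kb there.

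Genes with a snoRNA gene inside had a higher share with a peak, and more of their length under peaks, than those without, although the intervals of the shares overlap. Positions inside a gene stand in for introns, because exons were not used here. In the OSS_128167 list 23 of 29 with a snoRNA gene had a peak (79.3%, 60.3 to 92.0), against 34 of 52 without (65.4%, 50.9 to 78.0). With the FDR limit the counts were 20 (69.0%, 49.2 to 84.7) and 25 (48.1%, 34.0 to 62.4). When peaks near another gene were left out, the counts were 15 of 29 and 25 of 52, so most of the difference was lost. Of all 372 protein-coding genes with a snoRNA gene inside, which are longer, 71.0% had a peak and 35.2% had one at that FDR, and 5.65% had an untreated peak, against 0 of the 29. The median covered share was 16.2% with a snoRNA gene and 0.0% without, and the median highest fold 4.05 and 3.58. Among genes up to 3000 bp long 11 of 14 with a snoRNA gene had a peak, against 14 of 22 without, and among longer ones 12 of 15 against 20 of 30.

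Both inside the genes and after them, the shares were higher with a snoRNA gene than without. After the end the difference was small where no other annotated gene lay nearby. Of the oriented genes, 15 of 19 with a snoRNA gene had a peak inside (78.9%, 54.4 to 93.9), against 16 of 42 without (38.1%). After the end the counts were 18 of 19 (94.7%) and 35 of 42 (83.3%). With the FDR limit they were 11 of 19 (57.9%, 33.5 to 79.7) and 12 of 42 (28.6%, 15.7 to 44.6) inside, and 15 of 19 (78.9%, 54.4 to 93.9) and 23 of 42 (54.8%, 38.7 to 70.2) after the end, and these intervals overlap. The next counts cover genes with no other annotated gene in the 3000 bp after the end, and all listed peaks. A peak lay there at 8 of 9 with a snoRNA gene (88.9%) and 18 of 21 without (85.7%). A total of 10 genes held at least 3 snoRNA genes, and 9 of them had a peak at an FDR of at most 0.05 (90.0%, 55.5 to 99.7). These were Rpl4 with 5 snoRNA genes, Rpl7a and Rpl13a with 4, and Rpl3, Rpl5, Rpl17, Rpl23a, Rps12 and Rpsa with 3. At that FDR the share was 69.0% (49.2 to 84.7) of all 29 genes with a snoRNA gene and 55.6% of the 81. The median covered share of the 10 was 8.37%, below the 16.2% of the 29. The only peak of Rpl23a lay 980 bp outside it, also near other annotated genes.

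Peaks lay directly over 15 of the 58 snoRNA genes inside ribosomal protein genes (25.9%), against 19 of 403 (4.71%) inside other protein-coding genes. These counts use all listed peaks, and some of them were outside the FDR limit of 0.05. Among those were the peaks over Snord35a and Snord34 in Rpl13a (fold 1.76, FDR 0.656), LOC115489588 in Rpl7a (FDR 0.0743) and Snora21 in Rpl23 (FDR 0.0528). In Rps12 the single long peak covered its 3 snoRNA genes, Snora33, Snord100 and LOC115487513. In Rpl3 the peak of fold 8.32 lay over Snord43 and LOC115488570, and in Rps2 that of 4.98 lay over Snora64 and Snora78. In Rpsa a peak with a fold of 3.66 lay over Gm26448, and in Rpl7a that of 5.44 lay over Gm23969. The snoRNA genes of Rpl4 and Rpl5 had no peak over them, and the peaks of highest fold at these genes lay after their ends. Since coverage of the host genes differs between the groups, an enrichment over the snoRNA genes themselves cannot be told apart from that of the host.

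Other genes of protein synthesis had OSS_128167 peaks to different extents. Of 7 ribosomal protein genes outside the symbol rule 4 had a peak, each at an FDR of at most 0.05, among them Rps3a1 (fold 5.24), Rack1 (4.69), which encodes a scaffold protein of the small subunit, and Rpl7l1 (4.41). Of 22 translation factor and other genes with TOP mRNAs 15 had one (68.2%, 45.1 to 86.1), 11 at that FDR. They were led by Gas5, a snoRNA host (7.99), the intermediate filament gene Vim (6.75), the helicase gene Eif4a2 (6.34) and the elongation factor gene Eef1a1 (5.54). Among all protein-coding genes 37.8% had a listed OSS_128167 peak, and 11.5% had one within the FDR limit of 0.05. Median gene length was 2155 bp for the 7 genes and 10829.5 bp for the 22. It was 17169 bp for all protein-coding genes, and the shares were not matched for length. Gas5 (3.05, FDR 1) was the 1 gene of the 22 with an untreated peak, and 0 of the 7 other ribosomal protein genes had one.

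Ribosome assembly and RNA polymerase I genes had 16 of 30 (53.3%, 34.3 to 71.7), 8 at an FDR of at most 0.05, led by Gnl3 (5.72), Polr1b (5.64), Ncl and Nop56 (4.78 each). Regulators of ribosomal protein synthesis had 8 of 17, 5 at that FDR, led by Myc (5.24), Larp1 (4.67), which binds TOP mRNAs, Yy1 (4.31) and Tsc2 (4.21). Sirt6 had no peak. Mitochondrial ribosomal protein genes had 22 of 78 (28.2%, 18.6 to 39.5), 5 at that FDR, against 37.8% and 11.5% of all protein-coding genes, and their highest were Mrps18b (6.67), Mrpl24 (4.08), Mrps25 (3.69) and Mrps22 (3.59). The peaks of Gnl3 and Mrps18b lay in the flanks, with 0% of either gene itself covered. The 3 lists of assembly, regulator and mitochondrial ribosomal protein genes had 0 members with an untreated peak. Median gene lengths in these 3 lists were 13236.5, 30089 and 7690.5 bp, and their shares were not matched for length either.

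The downstream windows were also read for these lists. A peak in the 3000 bp after the end was found at 17 of 69 mitochondrial ribosomal protein genes with a start (24.6%). In the list of translation factor and other TOP genes it was found at 10 of 15 protein-coding genes with a start (66.7%, 38.4 to 88.2). Of the cytosolic ribosomal protein genes 53 of 61 had one (86.9%). With the FDR limit of 0.05 the counts were 3 of 69 (4.35%) and 9 of 15 (32.3 to 83.7%), against 38 of 61 (62.3%). Over all protein-coding genes with a start the shares were 16.0% for any listed peak and 5.8% with that limit. At that limit the TOP list, which is not made of translation factors alone, lay close to the ribosomal protein genes. Before the start the counts over all listed peaks were 5 of 69 (7.25%), 1 of 15 (6.67%) and 9 of 61 (14.8%). The share of all protein-coding genes with a start was 5.53%. The gene lists are of unequal length and the genes of different lengths, and no test was made between them.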

How the data were processed

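Pol II ChIP-seq peak lists of 1 OSS_128167 and 1 untreated library were used. The 2 inputs were not analysed here. The submitters' processing notes name fastp, BWA and mm10. The sources used here do not give the peak caller, its thresholds or the use of the inputs. Per the file headers, the authors deposited for every peak its length, its fold enrichment as a ratio, and its pileup, a height of signal. A p-value and an FDR per peak were deposited as well. All of these belong to 1 list, and they served to describe and filter the peaks within it. The largest p-value was 0.00999 (OSS_128167) and 0.00956 (untreated), so many listed peaks do not pass an FDR limit. The pileup was not used for results.

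Genes, boundaries and gene types came from RefSeq GRCm38.p6, the assembly behind mm10, and strand and start from the most upstream promoter entry of a gene. Any overlap of at least 1 bp counted. A snoRNA gene was inside a gene when it lay wholly within its boundaries, and covered length is the union of peaks. Intervals are exact Clopper-Pearson 95% intervals for counted genes, cover counting error only, and neighbouring genes are not independent. No test between conditions was possible with 1 library each. The genes named were those of the 12 highest folds and 6 highest covered shares, those with no peak, at least 3 peaks or at least 3 snoRNA genes, near copies, the 3 on each side of the FDR limit, and up to 4 per other list. Genes in role groups, those with peaks in windows along the gene, and Rps18 and Rps6 were named after their values were seen. The genes and lists were chosen with earlier results of these data known. Alternatives were an FDR limit, a p-value limit of 0.001, 0, 500 and 5000 bp around the gene, the peak centre, at least 50% of a peak inside, and leaving out peaks near another gene. The values of a few genes are not reported or drawn here, although the counts include them. Protein sequences, exons and a genome were not used here. The counting was tested on simulated data. The tools were scipy 1.17.1, pandas 2.3.3 and numpy 2.4.6 under Python 3.11.15, with matplotlib 3.10.9 for the plots.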

Additional observations from a re-analysis of the deposited data

How the results depend on the processing

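No paired analysis was possible because each condition had 1 library and no replicate, and for the same reason no library could be left out. In the OSS_128167 list the number of ribosomal protein genes with a peak ranged from 40, when peaks near another gene were left out, to 72, with 5000 bp around the gene, a distance added after seeing the data, against 57 as reported. In the untreated list it was 0 in every planned setting and 2 with 5000 bp. The genes with a snoRNA gene inside and a peak fell to 15 when peaks near another gene were left out, against 23 as reported, and those without one to 25, against 34, so the difference between the shares of the 29 and the 52 genes was mostly lost. The median covered share was 0.0% at an FDR of at most 0.05, against 6.99% over all listed peaks, and 4.81% at a p-value of at most 0.001. The median highest fold stayed between 3.6 and 4.03 in the settings run. The other counts, for the large and small subunit genes and for peaks after the end and before the start, stayed within 1.5 times the reported counts in the settings run. The lists give no read totals, so what depth limits cannot be said beyond the counting intervals, and peaks at an FDR above 0.05 are weakly supported.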
